A study of Mus musculus with 7 samples.

Results

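The genes described here encode 10 ion channels of the TRP and P2X families known from sensory neurons: Trpv1, Trpv2, Trpv4, Trpa1, Trpm8, Trpm2, Trpm3, P2rx3, P2rx4 and P2rx6. They were found by symbol among the 29777 genes of the deposited count table, and all 10 were present. RNA was sequenced from cells of cervical dorsal root ganglia that expressed GFP, sorted from ICR mouse embryos at E11.5 to obtain TrkC neurons, from which the muscle-sensing proprioceptors develop. GFP comes with the Runx3-P2 allele, so both genotypes carried at least 1 copy of it and the heterozygotes stand in for a wild type, as which the file headers name them. The groups were 4 libraries from homozygous Runx3-P2-/- embryos, which the labels call knockout, and 3 libraries from heterozygous Runx3-P2+/- embryos. The series design describes pools of 4, and nothing in the labels says whether the libraries came from separate litters, so the p-values below rest on the variation among these 7 libraries, part of which may be technical. Each library carries its own label date. Going by the source names, the homozygote dates reach both earlier and later than the heterozygote dates. The library numbers used below pair nothing between genotypes.

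TRP channels are tetrameric cation channels that open to temperature, chemical ligands, lipids or mechanical stimuli. TRPV1 answers noxious heat and capsaicin, TRPM8 cold and menthol, and TRPA1 electrophilic irritants. These are best known from nociceptive and thermosensitive neurons, which arise from the same ganglia as the TrkC neurons. P2X receptors are trimeric channels gated by extracellular ATP, and P2X3 is the form most restricted to sensory neurons. Runx3 is a Runt-family transcription factor of TrkC neurons.

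Total counts ran from 11767169 to 13986835 in the homozygotes and from 11184237 to 13217422 in the heterozygotes. Runx3, the targeted gene, averaged 9.17 ± 3.06 CPM in homozygotes and 85.3 ± 15.7 CPM in heterozygotes (SD, n = 4 and 3), where CPM is the count scaled for library size (edgeR, TMM). The fall was -3.22 ± 0.30 on the log2 scale (SE), with an adjusted p of 0.00593 in edgeR, which called 7 of 14040 tested genes (0.0499%). With heterozygote library 2 left out Runx3 was at -3.14 and no longer called (edgeR adjusted p = 0.0885). With heterozygote library 3 left out it was at -3.12, also not called (edgeR adjusted p = 0.0576). Ntrk3, which encodes TrkC, averaged 134 ± 77.1 CPM in homozygotes and 171 ± 37.8 CPM in heterozygotes. The sensory neuron markers Isl1 and Pou4f1 averaged 1059 and 1418 CPM in the homozygotes and 1381 and 1874 CPM in the heterozygotes. The summed level of the 14 sensory neuron markers was 12614 to 22401 CPM in homozygote libraries and 22065 to 25169 CPM in heterozygote libraries. All 17 leukocyte markers had counts in both genotypes, and their summed level was 698 to 4404 CPM in homozygotes and 291 to 359 CPM in heterozygotes. Coro1a alone made up most of the heterozygote sums, at 208, 226 and 283 CPM of 347, 359 and 291 CPM. Its genotypes overlapped, with a log2 fold change of 0.60 ± 0.31 (SE, edgeR). Libraries 3 of both genotypes stood apart: on principal component 1, which held 63% of the variance of 500 genes, homozygote library 3 lay at 65.9 and heterozygote library 3 at -68.3. The other homozygote libraries lay from 16.7 to 20.6 and the other heterozygote libraries from -29.3 to -25.3. The leukocyte markers Ptprc, Tyrobp and Csf1r were at 59.4, 113 and 209 CPM on average in homozygotes and at 2.93, 6 and 13.9 CPM in heterozygotes. In heterozygote library 3 these markers were at 0.0869, 0.435 and 0.782 CPM. Homozygote library 3 held the highest leukocyte and the lowest sensory neuron sum. At the other end, heterozygote library 3 held the lowest leukocyte and the highest sensory neuron sum. The summed levels of the skeletal muscle, mesenchyme, endothelial, erythroid, spinal cord and glial marker lists overlapped between genotypes. Within these lists DESeq2 called Pecam1 (endothelial, adjusted p = 0.0119) and Gata2 (spinal cord, adjusted p = 0.00491) higher and no gene lower. In edgeR their log2 fold changes were 3.02 ± 0.95 and 2.77 ± 0.79 (SE), and neither was called (adjusted p = 0.211 and 0.174).

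Among the P2X receptors, P2rx3, the ATP receptor of small sensory neurons, was by far the most abundant. It was present at 687, 584, 312 and 787 CPM in the homozygote libraries, against 1054, 670 and 1285 CPM in the heterozygote libraries. Homozygote library 3 was the lowest of all 7, and homozygote library 4 lay above heterozygote library 2, so the groups overlapped. The means were 592 ± 205 CPM in homozygotes and 1003 ± 311 CPM in heterozygotes (SD, n = 4 and 3). The log2 fold change was -0.76 ± 0.31 (SE; 95% interval -1.44 to -0.08), which did not pass over all genes (unadjusted p = 0.032, adjusted p = 0.334, edgeR quasi-likelihood test). DESeq2 gave an adjusted p of 0.185, and the authors' deposited table lists a log2 fold change of -0.69 with its sign turned to homozygote over heterozygote, at an adjusted p of 0.208. Without heterozygote library 3 the log2 fold change was -0.53, and without libraries 3 of both genotypes it was -0.33.

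The library with the lowest P2rx3 was also the one with the fewest sensory neuron and the most leukocyte counts. Heterozygote library 3, with the highest P2rx3, had the highest sensory neuron sum (25169 CPM) and the lowest leukocyte sum (291 CPM). It also held the highest Trpv2 (151 CPM) and Trpm2 (15 CPM), while P2rx4, Trpm3 and Trpv4 were highest in homozygote libraries. Whether cell composition accounts for these values was not tested. In sorted bulk cells, fewer cells of a type and less RNA per cell cannot be told apart. Taken relative to the mean log2 CPM of the 14 sensory neuron markers in the same library, P2rx3 lay at 1.05 ± 0.19 in homozygotes and 1.27 ± 0.43 in heterozygotes (SD, n = 4 and 3), a difference of -0.22 (exact permutation test over libraries, two-sided, p = 0.4). That marker list holds Avil and Prph, which DESeq2 called lower, so the scale itself moves with genotype. With the leukocyte list mean as a covariate, the log2 fold change of P2rx3 was 0.10 (adjusted p = 0.998, edgeR); this covariate also differs by genotype.

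P2rx4, a widely expressed P2X receptor also known from microglia and macrophages, was at 3.28, 3.42, 5.77 and 8.9 CPM in homozygotes, against 3.98, 6.49 and 3.48 CPM in heterozygotes. The heterozygote values lay within the homozygote range. The log2 fold change of P2rx4 was 0.20 ± 0.54 (SE) with an adjusted p of 0.938 (edgeR) and a 95% interval from -1.01 to 1.41, an interval wide enough to hold a change of 2-fold either way. P2rx6, which rarely forms channels by itself, had 8, 0, 0 and 0 counts in homozygotes and 3, 7 and 3 counts in heterozygotes, too few to pass the count filter.

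**Figure D1:**
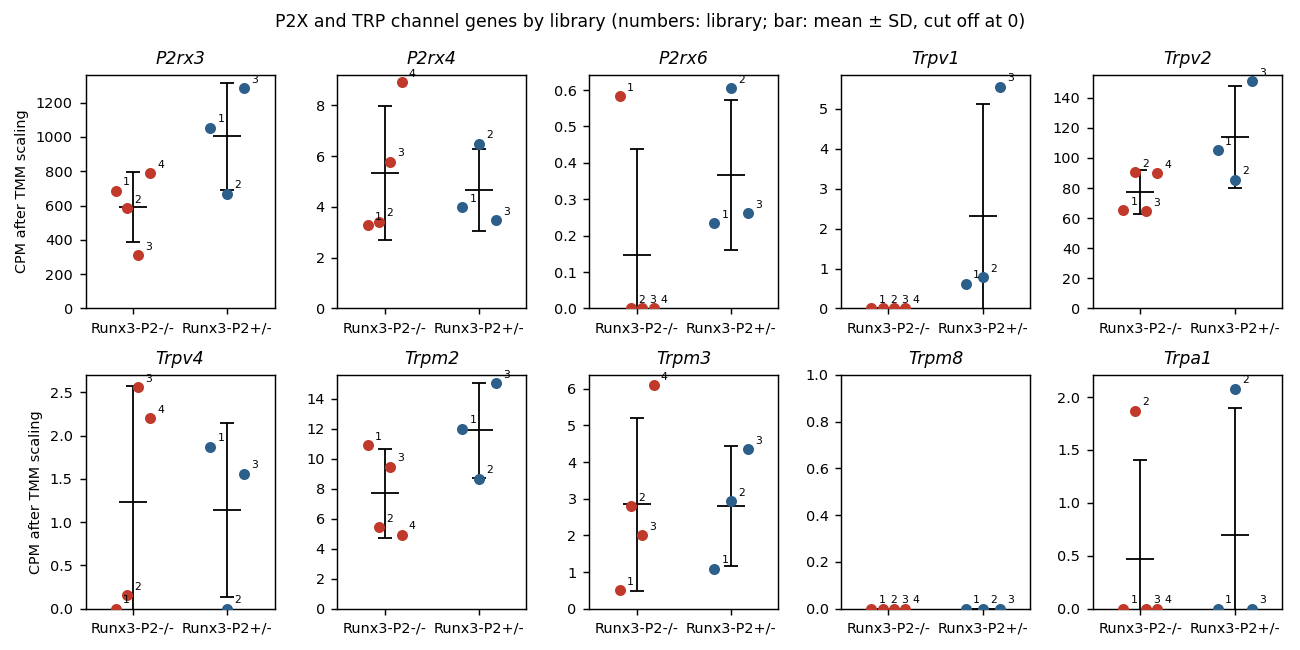
CPM after TMM scaling of the 10 channel genes in each library, Runx3-P2-/- (red, 4 libraries) left and Runx3-P2+/- (blue, 3 libraries) right; numbers give the library, bars the mean ± SD, cut off at 0. P2rx3 and Trpv2 have lower means in Runx3-P2-/- with overlapping libraries, Trpv1 has counts in Runx3-P2+/- libraries alone, and Trpm8 is at 0 throughout.

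Of the 4 other P2X genes, 2 passed the filter and edgeR called neither. P2rx1, an ATP receptor known from platelets, leukocytes and smooth muscle, had 89, 172, 587 and 168 counts in homozygotes, against 0, 1 and 23 in heterozygotes. No heterozygote library reached the lowest homozygote library; the log2 fold change of 4.87 ± 1.21 (SE) passed in DESeq2 (adjusted p = 0.0312) and not in edgeR (adjusted p = 0.139). P2rx7, a receptor of macrophages and microglia, had 9, 6, 230 and 79 counts in homozygotes and 51, 6 and 2 in heterozygotes; its genotypes overlapped, and 2.06 ± 1.37 (log2 fold change, SE) gave an adjusted p of 0.597 in edgeR. Library 3 held the highest count of both genes among the homozygotes, as it held the highest leukocyte sum; whether the leukocyte markers account for these values was not tested.

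Per length of exon, P2rx3 made up 86.6% to 98.8% of the summed level of all 7 P2X genes in homozygote libraries, against 98.9% to 99.6% in heterozygote libraries. P2rx1 held 0.745% to 10.4% of that sum in homozygotes and 0% to 0.124% in heterozygotes. P2rx4 held 0.346% to 1.18% in homozygotes and 0.198% to 0.703% in heterozygotes. Thus P2rx3 was the leading P2X gene in all 7 libraries.

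Among the TRPV channels, Trpv2, a channel known from large sensory neurons, motor neurons and macrophages, was the leading gene, with 94.3% to 99.3% of the summed TRPV1 to TRPV6 level per exon length in homozygotes and 95.8% to 98.3% in heterozygotes. It stood at 65.1, 90.5, 64.7 and 89.9 CPM in the homozygote libraries, against 105, 85.4 and 151 CPM in the heterozygote libraries. Heterozygote library 2 lay below homozygote libraries 2 and 4, so the groups overlapped. The means were 77.6 ± 14.6 CPM in homozygotes and 114 ± 33.5 CPM in heterozygotes (SD, n = 4 and 3). On the log2 scale this was -0.55 ± 0.23 (SE; 95% interval -1.08 to -0.032), which did not pass (unadjusted p = 0.0397, adjusted p = 0.363, edgeR). It was -0.29 without heterozygote library 3 and -0.22 without libraries 3 of both genotypes, and -0.0026 with the leukocyte covariate. Relative to the sensory neuron markers of the same library, Trpv2 lay at -1.82 ± 0.31 in homozygotes and -1.85 ± 0.31 in heterozygotes on the log2 scale (SD, n = 4 and 3; difference 0.035; exact permutation test, two-sided, p = 0.914).

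Trpv1, the heat and capsaicin receptor, had 0 counts in all 4 homozygote libraries and 8, 9 and 64 counts in the heterozygote libraries. It was the single gene of the 10 whose genotypes did not overlap. Of the genes tested in edgeR, Trpv1 not among them, 5.78% showed that pattern as lower. Heterozygote library 3 alone held 64 of the 81 Trpv1 counts. That library also had the highest sensory neuron and the lowest leukocyte sum. A count of 0 allows up to 0.219 to 0.254 CPM per homozygote library; the heterozygote libraries were at 0.624, 0.778 and 5.56 CPM. With 3 counts over the homozygote group taken as the floor, the pooled heterozygote level lay 38.3-fold above it, and 11.8-fold without heterozygote library 3. These bounds cover counting error in the homozygotes only and take the heterozygote counts as exact. They leave out the spread of 8, 9 and 64 counts. The cDNA was also amplified, so counts are not independent molecules.

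The count filter left Trpv1 out of the edgeR test. Without that filter, edgeR gave an adjusted p of 0.1. DESeq2 called the gene lower (adjusted p = 0.00382), as it did 1.26% of the 15484 genes that it gave an adjusted p. Without heterozygote library 3 the edgeR value was 0.455 and DESeq2 returned no adjusted p, at an unadjusted p of 0.114; without any other single library DESeq2 gave from 0.0055 to 0.0139. An exact permutation test on the CPM gave p = 0.0571, two-sided, the smallest that 4 against 3 libraries allow. Of 14396 genes with a count in all 3 heterozygote libraries, 61 (0.424%) were at 0 in all 4 homozygote libraries. Among the 2269 of these whose heterozygote sum lay within 2-fold of that of Trpv1, 9 (0.397%) showed the pattern, Trpv1 included. The authors' deposited table gives Trpv1 a log2 fold change of -2.21 with its sign turned and no p.

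Trpv4, a channel gated by osmotic and mechanical stimuli and known from endothelium, cartilage and epithelia, had 0, 2, 32 and 26 counts in homozygotes, against 24, 0 and 18 in heterozygotes. Each genotype thus held a library at 0. The estimate of 0.096 ± 1.52 (log2 fold change, SE; adjusted p = 0.99, edgeR) had a 95% interval from -3.29 to 3.49, so changes of several fold either way were not detectable at this depth.

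Promoter sequence is shown for Trpv1 and Trpv2, the TRPV genes with the lower homozygote means, because Runx factors bind the letters TGTGGT. RefSeq promoters (250 bases before to 50 after a start) matched 8 of the 10 genes by symbol; P2rx3 and Trpa1 had none. The sequences are from build GRCm38.p6, both on the plus strand of chromosome 11, at chr11:73233899-73234178 for Trpv1 and chr11:62574236-62574515 for the first of 3 Trpv2 starts. They run 5′ to 3′ from 250 bases before to 30 bases after the start, and capitals mark TGTGGT.
Trpv1: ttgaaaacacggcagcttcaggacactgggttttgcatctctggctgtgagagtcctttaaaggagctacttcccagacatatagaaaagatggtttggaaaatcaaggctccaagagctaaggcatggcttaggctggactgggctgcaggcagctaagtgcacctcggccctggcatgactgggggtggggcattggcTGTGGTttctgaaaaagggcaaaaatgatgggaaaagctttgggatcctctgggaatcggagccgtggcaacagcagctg
Trpv2: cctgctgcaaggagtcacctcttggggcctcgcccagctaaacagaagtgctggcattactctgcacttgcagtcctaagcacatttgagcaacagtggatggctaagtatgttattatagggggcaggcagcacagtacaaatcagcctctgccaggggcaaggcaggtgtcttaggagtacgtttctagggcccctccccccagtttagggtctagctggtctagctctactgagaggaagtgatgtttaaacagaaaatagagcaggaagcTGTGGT
The match began 50 bases before the start in Trpv1 and 24 bases after it in Trpv2. Either of the letters TGTGGT and the variant TGCGGT, searched on both strands, occurred in 5 of the 11 promoters of the matched genes and in 22.4% of all 32851 promoters of 300 bases; TGTGGT alone occurred in 16.8% of these. The 5 were the first and second of the 3 Trpv2 promoters, which overlap and share the match, the second of the 2 Trpm3 promoters, and those of Trpv1 and P2rx4. The third Trpv2 and the first Trpm3 promoter had none, nor did those of Trpm2, Trpv4, Trpm8 and P2rx6. Trpm2 and P2rx6 had lower homozygote means without a match, and P2rx4 and Trpm3 had a match without a lower mean. Such a match is a description of the letters and not of binding.

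Among the TRPM channels, Trpm2, opened by ADP-ribose, oxidants and warmth and known from both sensory neurons and leukocytes, was at 10.9, 5.44, 9.45 and 4.92 CPM in homozygotes, against 12, 8.65 and 15 CPM in heterozygotes. Homozygote libraries 1 and 3 lay above the lowest heterozygote library. The means were 7.69 ± 2.97 CPM in homozygotes and 11.9 ± 3.15 CPM in heterozygotes (SD, n = 4 and 3), and the log2 fold change of -0.63 ± 0.42 (SE; 95% interval -1.56 to 0.31) did not pass (adjusted p = 0.602, edgeR). With the leukocyte list mean as a covariate its log2 fold change was -0.37 (adjusted p = 0.998, edgeR), and the part of leukocyte RNA in its counts was not tested. Per exon length, Trpm2 held 16.6% to 43.1% of the summed level of the 8 TRPM genes in homozygotes and 29.6% to 30.5% in heterozygotes. Trpm4, a calcium-activated channel, held 39% to 55.2% in homozygotes and 47.1% to 55% in heterozygotes.

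Trpm3, a steroid- and heat-gated channel of sensory neurons, was at 0.51, 2.8, 2 and 6.1 CPM in homozygotes, against 1.09, 2.94 and 4.35 CPM in heterozygotes. The values varied more within a genotype than between the means of 2.85 CPM in homozygotes and 2.79 CPM in heterozygotes. The difference of 0.03 ± 0.85 on the log2 scale (SE) had a 95% interval from -1.86 to 1.92 (adjusted p = 0.995, edgeR).

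Trpm8, the cold and menthol receptor, had 0 counts in all 7 libraries, which allows up to 0.219 to 0.254 CPM per homozygote library and 0.234 to 0.261 CPM per heterozygote library. Trpa1, the receptor for irritants such as mustard oil, had 0, 24, 0 and 0 counts in homozygotes and 0, 24 and 0 counts in heterozygotes. Its counts thus came from library 2 of each genotype, and no difference between genotypes was detectable.

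**Figure D2:**
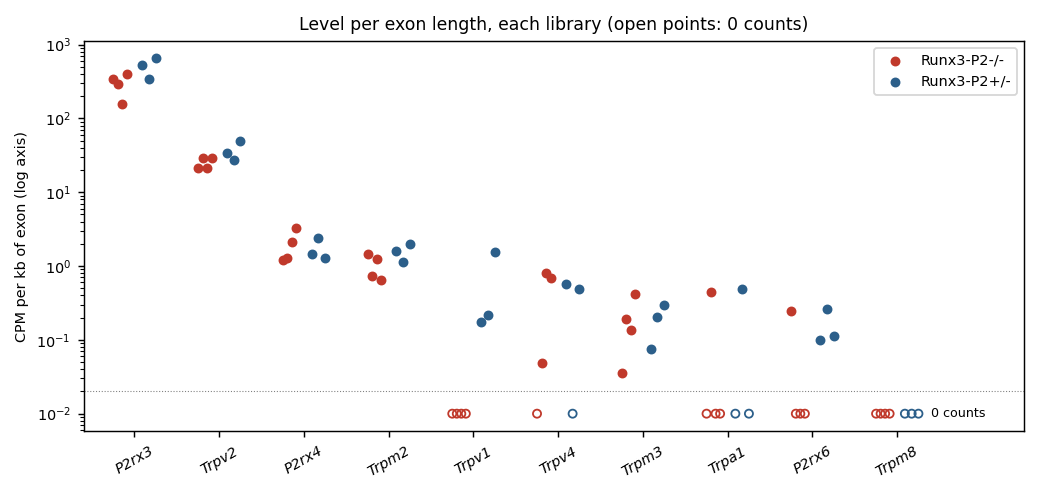
CPM per kilobase of exon on a log axis for the 10 channel genes, Runx3-P2-/- libraries (red) left of Runx3-P2+/- libraries (blue); open points at the bottom are libraries with 0 counts. P2rx3 and Trpv2 stand above all others in every library.

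Levels differed widely among the channel genes. On the scale of CPM per kilobase of annotated exon, P2rx3 averaged 298 ± 103 in homozygotes and 505 ± 156 in heterozygotes (SD, n = 4 and 3). Trpv2 came next, at 25.2 ± 4.75 in homozygotes and 37 ± 10.9 in heterozygotes, without overlap with P2rx3 in any library. P2rx4 averaged 1.98 ± 0.974 and Trpm2 1.02 ± 0.395 in homozygotes, against 1.72 ± 0.597 and 1.58 ± 0.42 in heterozygotes. These neighbours overlapped with each other in both genotypes, and Trpv2 stood above both in every library. Trpv4, Trpm3, Trpa1 and P2rx6 had means from 0.0622 to 0.381 in homozygotes and from 0.156 to 0.354 in heterozygotes, with overlapping libraries and no order among them. Trpv1 averaged 0 in homozygotes and 0.652 ± 0.789 in heterozygotes. The exon lengths come from GENCODE M21 and may differ from the annotation behind the counts.

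**Figure D3:**
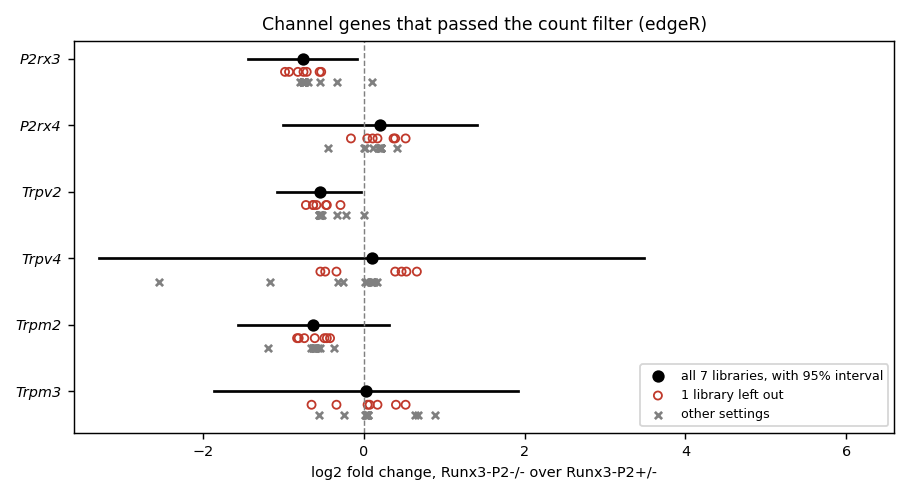
Log2 fold change of Runx3-P2-/- over Runx3-P2+/- for the 6 channel genes that passed the count filter; black points with lines are edgeR estimates with 95% intervals, open circles leave out 1 library and crosses are other settings. P2rx3, Trpv2 and Trpm2 lie on the lower side in all fits shown except 1 of P2rx3, and Trpv4 spans both sides widely.

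Of the 10 channel genes, 6 passed the count filter. None of the 6 was called at an adjusted p below 0.05 (edgeR), where 7 of all 14040 genes tested (0.0499%) were. At an unadjusted p below 0.05, 2 of the 6 were lower in homozygotes and 0 higher, against 4.88% and 7.75% of all tested genes. DESeq2 called 1 of the 8 channel genes that it gave an adjusted p as lower, Trpv1, and 0 higher. Of all 15484 genes that it gave an adjusted p, it called 1.26% lower and 3.33% higher. No tested channel gene had genotypes without overlap, which 5.78% of tested genes showed as lower and 6.6% as higher. The log2 fold change was negative for 3 of the 6, against 51.7% of all tested genes, and positive for 3, against 48.3%. The median over the 6 was -0.26, beside -0.018 over all tested genes.

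The genes whose level followed each channel most closely over the 7 libraries were found by the root mean square difference of centred log2 CPM among 11814 named genes. For P2rx3 these were Inpp1 and Ptprr, at 0.097 and 0.12, where P2rx3 itself varied by 0.61. For Trpv2 they were Gnb5 and Pgm2, at 0.086 and 0.10 beside a variation of 0.39. Trpm2 was followed by Pprc1 and Tln2 (0.15 and 0.18 beside 0.53) and P2rx4 by Cpt2 and Homer3 (0.12 and 0.18 beside 0.50). Trpm3 (Leprel4 and Fbxw9, 0.46 and 0.47 beside 1.02) and Trpv4 (Myadml2 and Gnb4, 0.84 and 0.88 beside 1.73) had closest genes farther away.

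Among 15 genes of P2Y receptors and ATP handling, 11 were tested and edgeR called 0, with 6 higher at an unadjusted p below 0.05 and a median log2 fold change of 1.97. DESeq2 called 3 higher and 0 lower: P2ry14, P2ry6 and P2ry12. P2ry12, the ADP receptor of microglia and platelets, had 454, 1251, 5416 and 876 counts in homozygotes, against 122, 178 and 6 in heterozygotes (log2 fold change 4.23 ± 1.09, SE; adjusted p = 0.149, edgeR; adjusted p = 0.0178, DESeq2). P2ry6, a UDP receptor, and P2ry14, a UDP-glucose receptor, were at 3.06 ± 0.85 and 5.93 ± 1.27 on the log2 fold change scale (SE; adjusted p = 0.166 and 0.117, edgeR; 0.00233 and 0.00308, DESeq2). Of the 17 leukocyte markers, DESeq2 called 11 higher and edgeR 0, 15 were higher without overlap, and the median was 3.98; their part in these values was not tested.

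Of 20 regulators and partners of TRP channels, 15 were tested and edgeR called 0; DESeq2 called 1 lower, Pirt, and 0 higher, around a median of -0.23. Pirt encodes a phosphoinositide-binding membrane protein known to regulate TRPV1 and TRPM8 in sensory neurons. It had 1772, 861, 740 and 1358 counts in homozygotes, against 3326, 2182 and 4010 in heterozygotes. No homozygote library reached the lowest heterozygote library, and its value of -1.52 ± 0.31 (log2 fold change, SE) passed in DESeq2 (adjusted p = 0.000308) and not in edgeR (adjusted p = 0.0971). Of 21 other TRP channels, 11 were tested, and neither edgeR nor DESeq2 called any, around a median of -0.46. Trpv3, the chromosomal neighbour of Trpv1, had 0 counts in every library.

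Of 14 tested nociceptor genes other than the channels, edgeR called 0, while DESeq2 called 6 lower and 2 higher, around a median of -1.02. Lower log2 fold changes were those of the neuropeptide genes Gal (-2.65 ± 0.46) and Calca (-3.82 ± 0.77), the transcription factor Prdm12 (-1.59 ± 0.27) and the receptor Gfra3 (-1.37 ± 0.28; all ± SE). Calcb and Scn10a were the other 2 lower genes and Gfra2 and Sst the 2 higher ones, named after their values were seen. The log2 fold changes of P2rx3, Trpv2 and Trpm2 were each closer to 0 than any of these; the differences between genes were not tested.

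**Figure D4:**
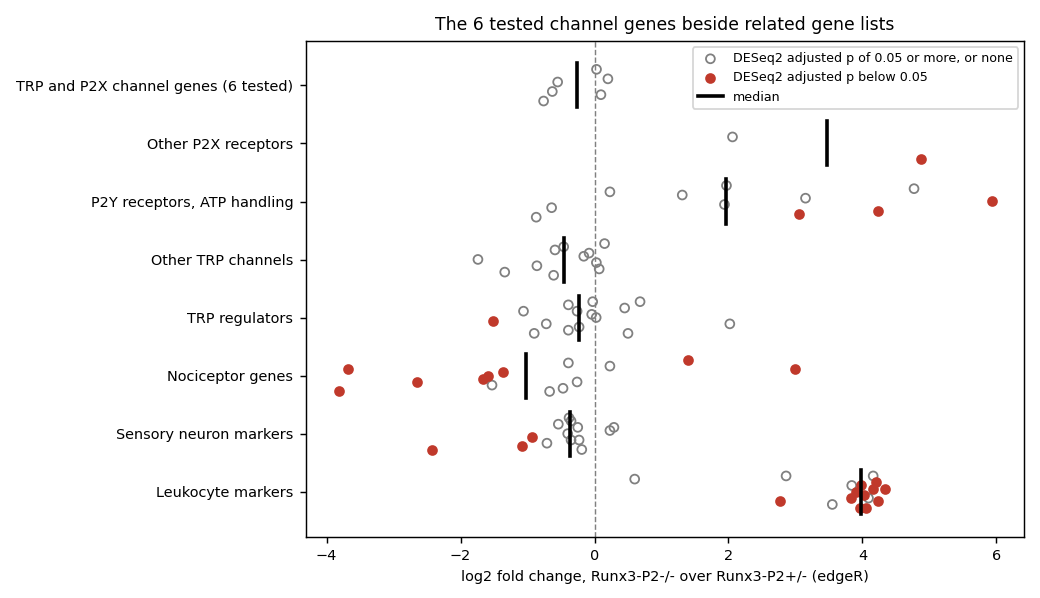
Log2 fold change of Runx3-P2-/- over Runx3-P2+/- (edgeR) for each tested gene of 8 lists; filled points have a DESeq2 adjusted p below 0.05, open points do not, and black bars are list medians. The 6 tested channel genes lie between -0.76 and 0.20, P2Y and other P2X genes lie mostly on the higher side with the leukocyte markers, and nociceptor genes mostly on the lower side.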

How the data were processed

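Raw counts per gene and library were deposited by the authors. Of tools and builds, the submitters' processing notes list mm9, HTSeq, TopHat 1.4.0 and DESeq2 1.2.8 but assign no roles; which annotation and strand setting were used is not given in the sources read. RNA was amplified with a SMARTer Ultra low kit, per the labels' protocols, which does not mark strand. The normalized signal deposited alongside equalled the raw counts divided by 1 factor per library and was not used in tests. The authors' deposited log2 fold changes and p-values were copied for comparison only, with the sign turned. Of 29777 genes, 27 had names turned into dates.

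Genotypes were compared over the whole table with edgeR 4.0.16 in R 4.3.3: filterByExpr (minimum count 10, minimum total 15), TMM, glmQLFit and glmQLFTest, Benjamini-Hochberg adjustment over all tested genes, with 0.05 as the threshold for a call. Standard errors came from dividing each estimate by the root of its F statistic. DESeq2 1.42.0, limma-voom (limma 3.58.1) and other settings were alternatives, 19 in all. The fits were also run on simulated counts with known changes, placed only among genes that passed the count filter. Their outcome is not reported here and does not cover genes that the filter left out, such as Trpv1. The genes and lists were chosen with earlier results of these data known. Named genes followed a written rule: all 10 channels, Runx3, Ntrk3, P2rx7, Trpv3, defining markers, per list up to 4 called genes of smallest p (otherwise 2), and the 2 nearest genes per tested channel. Floors for counts of 0 (3 counts) cover counting error only. The intervals of the edgeR estimates rest, as their p-values do, on the variation among the libraries. Without strand, P2rx3 cannot be told apart from Ssrp1 over 12 of its 1985 exon bases (GENCODE M21).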

Additional observations from a re-analysis of the deposited data

Results flagged for a closer look

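In the group of 4 homozygote libraries, Trpa1 and P2rx6 each had 1 library far from the others. The gap of that library to its nearest neighbour, as a share of the group's range, was 1 for both genes. Trpa1 had 24 counts in homozygote library 2 and 0 in the others, and P2rx6 had 8 counts in homozygote library 1 and 0 in the others. A gene counted in 1 library alone has this gap by construction, so it carries no information beyond the counts.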

How the results depend on the processing

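Over 19 alternatives, no tested channel gene was called; adjusted p-values ran from 0.185 to 0.998 for P2rx3 and from 0.289 to 0.999 for Trpv2 (edgeR, limma-voom or DESeq2). DESeq2 called 1 channel gene, Trpv1, which the count filter leaves out of the edgeR test. The number of channel genes lower at an unadjusted p below 0.05, which was 2, was 1 in a narrower window of label dates (without homozygote libraries 1 and 3), 0 without both libraries 3, 0 with the leukocyte covariate, 0 with the date covariate and 0 to 2 when 1 library was left out (0 for heterozygote libraries 1 and 3 each, 1 for homozygote libraries 1, 2 and 3 each). The number of the 10 lower without overlap, which was 1, was 3 in the window of dates and 1 to 4 when 1 library was left out (4 without heterozygote library 2, 2 without homozygote library 1). Fewer libraries overlap less: the share of all 14040 tested genes lower without overlap was 13% in the window, 10.7% without heterozygote library 2 and 8.74% without homozygote library 1, where 1, 3 and 0 of the 6 tested channel genes were. Directions turned as follows: P2rx3 to 0.10 with the leukocyte covariate. P2rx4 turned to -0.44 with that covariate, to -0.0034 without both libraries 3, and ran from -0.16 to 0.52 over left-out libraries. Trpm3 turned to -0.25 with limma-voom and -0.56 with the date covariate, and ran from -0.65 to 0.52 over left-out libraries. Trpv4 turned to -0.32 with limma-voom, -0.26 without both libraries 3, -1.17 with the leukocyte and -2.55 with the date covariate, and ran from -0.54 to 0.66 over left-out libraries. Runx3 lost its call with the leukocyte covariate (-2.88, adjusted p = 0.739, edgeR), without heterozygote library 2 and without heterozygote library 3; its log2 fold change ran from -3.38 to -3.07 over left-out libraries. Over all genes, edgeR called 7; the count was 711 with DESeq2, 61 with the adjusted quasi-dispersion, 80 with no count filter, 12 without both libraries 3, 3 with the date covariate, 0 with the leukocyte covariate and 1 to 27 over left-out libraries. In the context lists, 0 genes were called higher and 1 lower (Avil); the counts were 19 and 10 with DESeq2 and 2 and 5 with no count filter. The adjusted quasi-dispersion gave 5 lower, and the count of lower genes was 0 within that window, 0 when both libraries 3 were left out (2 higher) and 0 with the leukocyte or date covariate. Left-out libraries gave 0 to 2 higher and 0 to 1 lower. The bound on Trpv1 moved to 11.8-fold without heterozygote library 3. The label dates of heterozygote library 1 conflict between its title and its source name; the window and the date covariate used the source name, so their values depend on that choice. The cause of these changes was not tested. No paired analysis was possible because the labels give no replicate numbers shared between genotypes. The comparison with the sensory neuron list and the fits of Trpv1 with libraries left out were chosen after seeing the data.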

Other observations

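The channel genes that follow were chosen after their values were seen. Trpc5, a receptor-operated TRP channel of neurons, had 0 counts in all 4 homozygote libraries, against 12, 17 and 7 counts in the heterozygote libraries (DESeq2 adjusted p = 0.0767); it is among the 61 genes that share this pattern with Trpv1. P2rx2, which encodes the subunit that joins P2X3 in heteromeric ATP receptors, had 0, 6, 0 and 0 counts in homozygotes, against 24, 20 and 6 counts in heterozygotes (DESeq2 adjusted p = 0.355). Neither passed the count filter of the edgeR test.

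Trpc6, a further channel of the same subfamily as Trpc5, had 0, 2, 21 and 41 counts in homozygotes and 0 counts in all 3 heterozygote libraries (DESeq2 adjusted p = 0.0863).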
